A study of Mus musculus with 9 samples.

Results

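Genes of adult neurogenesis and of immature neurons, 10 in all, were followed across the mouse hippocampus: Mki67, Top2a, Eomes, Neurod1, Sox4, Sox11, Dcx, Igfbpl1, Draxin and Calb2. They were chosen by gene symbol as markers of dividing progenitors and of newborn neurons, with earlier results of these data known. All 10 were found among the 22173 genes of the deposited table. Hippocampal RNA of C57BL/6 mice was sequenced in 9 libraries, 3 per group. Young control mice were 8 weeks old and middle-aged control mice 10 months old, and both had been given PBS with 10% DMSO, the solvent. Middle-aged quercetin mice, also 10 months old, had been given quercetin, a plant flavonol, for 24 days by the sample labels. By the study's methods it was given in the same solvent through the tail vein every other day. The study's text gives a longer course for the mice of its behaviour tests, and the difference was not settled. The study used female mice. The sources used here name no deletion or transgene for any group. Nor do they say that each library came from 1 mouse, so the errors and p-values below measure the spread between these libraries only. Values are FPKM, fragments scaled by gene length and by the mapped total of the library, so levels can be set beside each other between genes.

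In the dentate gyrus of the adult hippocampus, stem cells of the subgranular zone give rise to dividing intermediate progenitors, then to neuroblasts and immature granule neurons, which send axons to CA3 before they mature. The process is known to slow strongly with age in rodents. Each stage has its own transcripts: Mki67 and Top2a in cells that divide, Eomes in intermediate progenitors, Neurod1, Sox4 and Sox11 in cells that commit to a neuronal fate, Dcx, Igfbpl1 and Draxin in neuroblasts and young neurons, and Calb2 for a short time in immature granule neurons.

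Sox11, Draxin and Top2a were lower in all 6 libraries of the 10-month mice than in all 3 young libraries, at 0.812, 0.452 and 0.541 times the young mean. Dcx, the most used marker of newborn neurons, was at 0.871 times the young mean and overlapped between the groups. Mki67 and Sox4 overlapped between all groups. Igfbpl1 was lower in every middle-aged control library than in every young library, at 0.16 times the young mean, but 1 quercetin library was as high as the young ones. No gene of the 10 passed the test across all genes in any comparison, so none of these differences is a called change.

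That test was limma on log2(FPKM + 1) over all 9 libraries, for the 13062 genes that reached 1 FPKM in 3 or more libraries. A gene was called when its p, adjusted after Benjamini and Hochberg over all tested genes, was under 0.05. The members that passed this filter on low values were 5, namely Calb2, Neurod1, Sox4, Dcx and Sox11. Igfbpl1 reached 1 FPKM in 2 libraries and Eomes, Draxin, Mki67 and Top2a in none, so these 5 were compared by an exact permutation test over libraries and by a limma fit without the filter. With 3 libraries against 3, the exact test cannot go below p = 0.1 (20 assignments), and with the 6 libraries of both 10-month groups against the 3 young ones it cannot go below p = 0.0119 (84 assignments). Limma called 0 members in each of the 4 comparisons: middle-aged control against young, where it called 0.23% of all tested genes, quercetin against middle-aged control (0.168%), quercetin against young (0.0766%) and both 10-month groups together against young (0.161%). At unadjusted p under 0.05 it held Sox11 in 3 of these comparisons and Neurod1 in 1, beside 1596, 1525, 823 and 1158 of all tested genes. The comparisons share libraries and are not independent of each other.

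The labelled tissue was checked by its defining genes. Prox1, which marks dentate granule neurons, was between 15.31 and 18.43 FPKM, and Rbfox3, which encodes the neuronal protein NeuN, between 68.34 and 78.88 FPKM. Young control 3 and middle-aged quercetin 2 stood apart: 16 genes of the choroid plexus, the secretory epithelium in the ventricle beside the hippocampus, summed to 2882 and 1147 FPKM there and to between 56.8 and 96.8 FPKM in the other 7 libraries. Results that rest on these 2 libraries are therefore given with and without them. In bulk tissue, fewer cells of a type and less RNA per cell cannot be told apart.

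**Figure D1:**
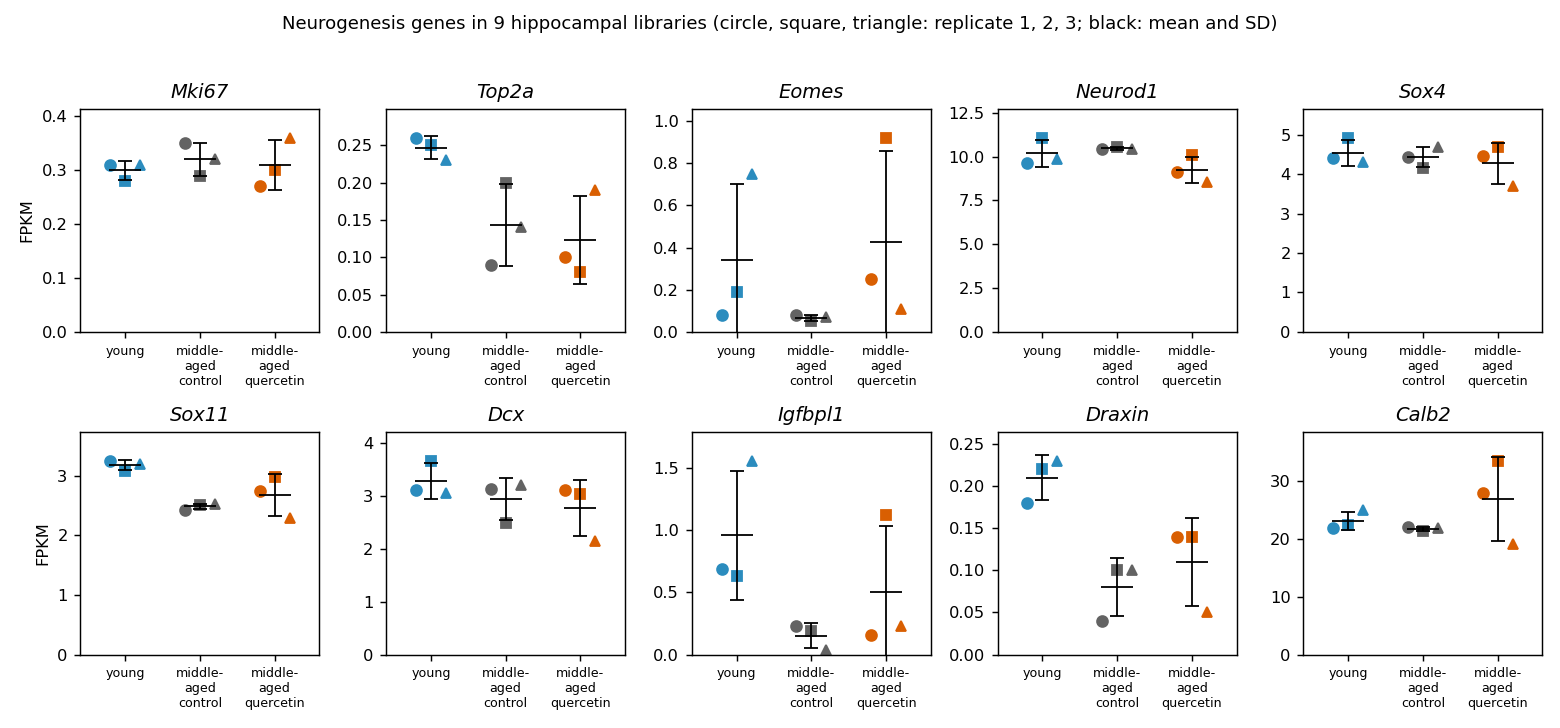
FPKM (vertical axes, from 0, each gene on its own scale) of the 10 genes in the young control (blue), middle-aged control (grey) and middle-aged quercetin (orange) libraries, with circle, square and triangle for replicates 1, 2 and 3 and black bars for the mean and SD (bars that would pass below 0 end at the axis). Sox11, Draxin and Top2a lie above all 6 libraries of the 10-month mice in each young library, whereas Mki67, Sox4 and Dcx overlap.

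The level order over all 9 libraries ran from Calb2 at 23.9 ± 4.37 FPKM (SD, n = 9) through Neurod1 at 9.96 ± 0.778 FPKM and Sox4 at 4.42 ± 0.352 FPKM to Dcx at 2.99 ± 0.433 FPKM and Sox11 at 2.78 ± 0.36 FPKM. The lower 5 followed with Igfbpl1 at 0.539 ± 0.514 FPKM, Mki67 at 0.31 ± 0.03 FPKM, Eomes at 0.278 ± 0.325 FPKM, Top2a at 0.171 ± 0.0704 FPKM and Draxin at 0.133 ± 0.068 FPKM. Calb2, Neurod1 and Sox4 were apart from their neighbours in every library, while the ranges of Dcx and Sox11 overlapped, as did those of neighbours among the lower 5. The highest library was 39.0 times the lowest for Igfbpl1 and 18.4 times for Eomes, against 1.29 times for Neurod1 and 1.33 times for Mki67 and Sox4.

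How few fragments stand behind the low values was estimated from the steps between low FPKM values. Low genes with a single transcript gave a most common worth of 1 fragment that corresponds to 17300000 fragments per library, and 58.9% of 197 such genes lay within 0.8 to 1.2 times the most common value. By this rough estimate, which rests on annotated transcript lengths and takes all libraries as equally deep, Draxin rested on 3.6 to 21 fragments per library, Top2a on 7.2 to 24, Igfbpl1 on 2 to 78, Eomes on 3.1 to 57 and Mki67 on 47 to 63. The 5 higher members rested on 310 to 830 fragments.

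Mki67 encodes Ki-67, a protein that coats mitotic chromosomes and is present in all dividing cells (chr7:135689784-135716450 in GRCm38.p6). It was at 0.31, 0.28 and 0.31 FPKM in young control 1 to 3, at 0.35, 0.29 and 0.32 FPKM in middle-aged control 1 to 3, and at 0.27, 0.30 and 0.36 FPKM in middle-aged quercetin 1 to 3. All groups overlapped, and both the lowest and the highest library were quercetin libraries. The mean of both 10-month groups was 1.05 times the young mean (two-sided exact permutation p = 0.595), and the fit without a filter gave a log2 fold change of 0.02 with a standard error of 0.0331 (limma adjusted p = 0.931).

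Top2a encodes topoisomerase II alpha, which untangles chromosomes before they separate (chr11:98992947-99024199). It was at 0.26, 0.25 and 0.23 FPKM in the young libraries, at 0.09, 0.20 and 0.14 FPKM in the 10-month controls and at 0.10, 0.08 and 0.19 FPKM in the quercetin libraries. Every young library was above every 10-month library, and the 2 older groups overlapped. The mean of both 10-month groups was 0.133 ± 0.052 FPKM (SD, n = 6) against 0.247 ± 0.0153 FPKM (n = 3) in the young, a ratio of 0.541 (exact permutation p = 0.0238). Without a filter limma gave a log2 fold change of -0.14 with a standard error of 0.0409 (adjusted p = 0.397). Without young control 3 and quercetin 2 the ratio was 0.565 and the exact permutation p = 0.0952, of 21 assignments whose smallest p is 0.0476. Quercetin against middle-aged control was at a ratio of 0.86 (exact permutation p = 0.7).

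Top2a and Mki67 are a standard pair of division markers, of which only Top2a was lower in all older libraries. Their upstream sequences are shown with 2 promoter elements marked. The bases before the annotated start of each gene are given 5′ to 3′ on the gene's strand, from RefSeq (GRCm38.p6). Capitals mark CCAAT boxes (CCAAT on either strand) and matches to the core of the cell cycle genes homology region (TTTGAA on either strand), elements known from promoters of genes of the G2 and M phases. The 2 motifs do not overlap each other in these sequences. Windows are chr11:99024200-99024439 and chr7:135716451-135716629, both on the minus strand.
Top2a: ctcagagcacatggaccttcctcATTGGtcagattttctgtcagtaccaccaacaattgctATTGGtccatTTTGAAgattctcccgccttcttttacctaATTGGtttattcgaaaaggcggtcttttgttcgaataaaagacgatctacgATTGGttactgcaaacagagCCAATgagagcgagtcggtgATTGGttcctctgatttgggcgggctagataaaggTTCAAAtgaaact
Mki67: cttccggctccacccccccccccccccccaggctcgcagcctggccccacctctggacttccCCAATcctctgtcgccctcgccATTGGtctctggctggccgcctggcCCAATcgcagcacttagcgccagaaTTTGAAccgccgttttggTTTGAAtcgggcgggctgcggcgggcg
The 240 bases of Top2a held 6 CCAAT and 2 TTTGAA matches, and the 179 bases of Mki67 held 3 and 2. Of 32851 annotated mouse promoter windows cut to the same length, 33.0% had at least 1 CCAAT and 15.5% at least 1 TTTGAA over 240 bases, and 24.8% and 12.6% over 179 bases. A match describes the letters only and was not tested as a binding site, and no link between matches and levels was tested.

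Eomes, also named Tbr2, is the transcription factor of intermediate progenitors, and it is also made by Cajal-Retzius cells (chr9:118478186-118486132). It was at 0.08, 0.19 and 0.75 FPKM in the young libraries, at 0.08, 0.05 and 0.07 FPKM in the 10-month controls and at 0.25, 0.92 and 0.11 FPKM in the quercetin libraries. The highest values were in young control 3 and quercetin 2, which held the choroid plexus transcripts. Each quercetin library was above each middle-aged control, at a ratio of 6.4 (exact permutation p = 0.1, the smallest possible), while 7.4% of the 18788 genes with a value above 0 in any library were higher without overlap in that comparison. Without those 2 libraries the ratio was 2.7. Against the young group, both 10-month groups were at 0.725 times (exact permutation p = 0.857).

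Neurod1, a basic helix-loop-helix factor needed for granule neurons to form and survive (chr2:79452637-79456636), was at 9.61, 11.06 and 9.86 FPKM in the young libraries, at 10.41, 10.56 and 10.45 FPKM in the 10-month controls and at 9.09, 10.06 and 8.57 FPKM in the quercetin libraries. It is also made by mature granule neurons. The middle-aged controls lay close together within the range of the young, and the 3 quercetin libraries lay below all 3 middle-aged controls. The difference between quercetin and middle-aged control was a log2 fold change of -0.17 with a standard error of 0.0652 and a 95% confidence interval from -0.31 to -0.02 (limma adjusted p = 0.345), a ratio of 0.882. Of all genes with a value above 0, 5.97% were lower without overlap there. Both 10-month groups against young gave -0.04 (interval -0.17 to 0.08, limma adjusted p = 0.876).

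Sox4 and Sox11 are closely related SoxC transcription factors that switch on neuronal genes in committed progenitors and act in part for each other. Sox4 (chr13:28948919-28953699) was at 4.42, 4.92 and 4.30 FPKM in the young libraries, at 4.44, 4.17 and 4.69 FPKM in the 10-month controls and at 4.45, 4.69 and 3.70 FPKM in the quercetin libraries. The groups overlapped throughout, and quercetin 3 was the lowest. Both 10-month groups against young gave a log2 fold change of -0.05 with a 95% interval from -0.21 to 0.11 (limma adjusted p = 0.881).

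Sox11 (chr12:27334268-27342718) was at 3.25, 3.08 and 3.20 FPKM in the young libraries, at 2.43, 2.50 and 2.52 FPKM in the 10-month controls and at 2.75, 2.98 and 2.29 FPKM in the quercetin libraries. The young and the middle-aged control libraries each lay close together and apart from each other, and the quercetin libraries spread from below the controls to just below the young. Middle-aged control was at 2.48 ± 0.0473 FPKM against 3.18 ± 0.0874 FPKM in the young (SD, n = 3 each). The log2 fold change was -0.26 with a standard error of 0.0793 (limma adjusted p = 0.224). Both 10-month groups against young gave -0.23 with a 95% interval from -0.38 to -0.07 (limma adjusted p = 0.375), and the exact permutation test gave the smallest p it can reach, 0.0119. Quercetin against middle-aged control was at 0.07 with an interval from -0.10 to 0.25 (limma adjusted p = 0.777), and quercetin against young at -0.19 (adjusted p = 0.778). Without young control 3 and quercetin 2 the ratio of both 10-month groups to young was 0.789.

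The sequence before the start of Sox11 is shown, with the same 2 motifs in capitals, because it was the only one of the 5 better measured members with no overlap between the ages. It runs over chr12:27342719-27342968 on the minus strand (GRCm38.p6, RefSeq), 5′ to 3′ in the gene's direction.
Sox11: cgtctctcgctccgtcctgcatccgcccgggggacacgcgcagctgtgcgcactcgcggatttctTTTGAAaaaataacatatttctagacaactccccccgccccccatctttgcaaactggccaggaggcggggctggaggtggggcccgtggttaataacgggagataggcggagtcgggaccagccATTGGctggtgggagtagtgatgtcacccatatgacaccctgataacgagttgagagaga
It held 1 CCAAT and 1 TTTGAA match in 250 bases, where 33.8% and 16.0% of the annotated windows have at least 1. The recognition sequence of basic helix-loop-helix factors such as Neurod1, CANNTG, occurred 2 times, and 66.2% of windows of this length hold it.

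Dcx encodes doublecortin, which binds microtubules in migrating neuroblasts and young neurons (chrX:143855842-143933396). It was at 3.10, 3.66 and 3.06 FPKM in the young libraries, at 3.12, 2.49 and 3.20 FPKM in the 10-month controls and at 3.10, 3.04 and 2.15 FPKM in the quercetin libraries. Young control 2 was the highest and quercetin 3 the lowest, and 5 of the 9 libraries lay between 3.04 and 3.12 FPKM, spread over all 3 groups. Middle-aged control against young gave a log2 fold change of -0.12 with a 95% interval from -0.38 to 0.13 (limma adjusted p = 0.72). Both 10-month groups against young gave -0.16 with an interval from -0.38 to 0.07 (adjusted p = 0.711), and quercetin against middle-aged control -0.07 with an interval from -0.33 to 0.18 (adjusted p = 0.861). These intervals include no difference as well as a decrease of the size seen for Sox11.

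Igfbpl1, a secreted relative of the insulin-like growth factor binding proteins that marks neuroblasts (chr4:45809507-45826827), was at 0.69, 0.63 and 1.56 FPKM in the young libraries, at 0.23, 0.19 and 0.04 FPKM in the 10-month controls and at 0.16, 1.12 and 0.23 FPKM in the quercetin libraries. All middle-aged controls lay below all young libraries, and of the quercetin libraries 2 lay at the level of the controls and 1, quercetin 2, within the range of the young. Middle-aged control was at 0.153 ± 0.1 FPKM against 0.96 ± 0.52 FPKM (SD, n = 3 each), a ratio of 0.16 (exact permutation p = 0.1, the smallest possible). Both 10-month groups against young were at 0.342 (exact permutation p = 0.0595 on FPKM and 0.0476 on log2(FPKM + 1)). The fit without a filter gave a log2 fold change of -0.57 with a standard error of 0.208 for that comparison (limma adjusted p = 0.526). Without young control 3 and quercetin 2 the ratio was 0.258 and the groups no longer overlapped (exact permutation p = 0.0476, the smallest of 21 assignments). This setting leaves out quercetin 2, the only older library that overlapped with the young. The share of all genes that separate in so few libraries was not computed, so no conclusion is drawn from it.

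Draxin, a secreted guidance protein that repels axons (chr4:148098437-148131139), was at 0.18, 0.22 and 0.23 FPKM in the young libraries, at 0.04, 0.10 and 0.10 FPKM in the 10-month controls and at 0.14, 0.14 and 0.05 FPKM in the quercetin libraries. Every young library lay above every 10-month library, and the 2 older groups overlapped. Both 10-month groups were at 0.095 ± 0.0428 FPKM (SD, n = 6) against 0.21 ± 0.0265 FPKM (n = 3), a ratio of 0.452 (exact permutation p = 0.0119, the smallest possible). Limma without a filter gave a log2 fold change of -0.14 with a standard error of 0.0363 (adjusted p = 0.332), a scale on which the 1 added to each value shrinks the difference of so low a gene. Without young control 3 and quercetin 2 the ratio was 0.43.

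Calb2 encodes calretinin, a calcium buffer of immature granule neurons that interneurons, mouse mossy cells and Cajal-Retzius cells also make (chr8:110142526-110168212). It was at 21.91, 22.44 and 24.92 FPKM in the young libraries, at 22.06, 21.40 and 21.81 FPKM in the 10-month controls and at 27.93, 33.52 and 19.09 FPKM in the quercetin libraries. The quercetin libraries held both the highest values, in 1 and 2, and the lowest, in 3. Their SD of 7.28 FPKM compared with 0.333 FPKM in the 10-month controls. Quercetin against middle-aged control gave a log2 fold change of 0.26 with a 95% interval from -0.07 to 0.58 (limma adjusted p = 0.552). Without quercetin 3 it was 0.47 (adjusted p = 0.0724), and without young control 3 and quercetin 2 it was 0.08. Both 10-month groups against young gave 0.05 (interval -0.23 to 0.33).

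**Figure D2:**
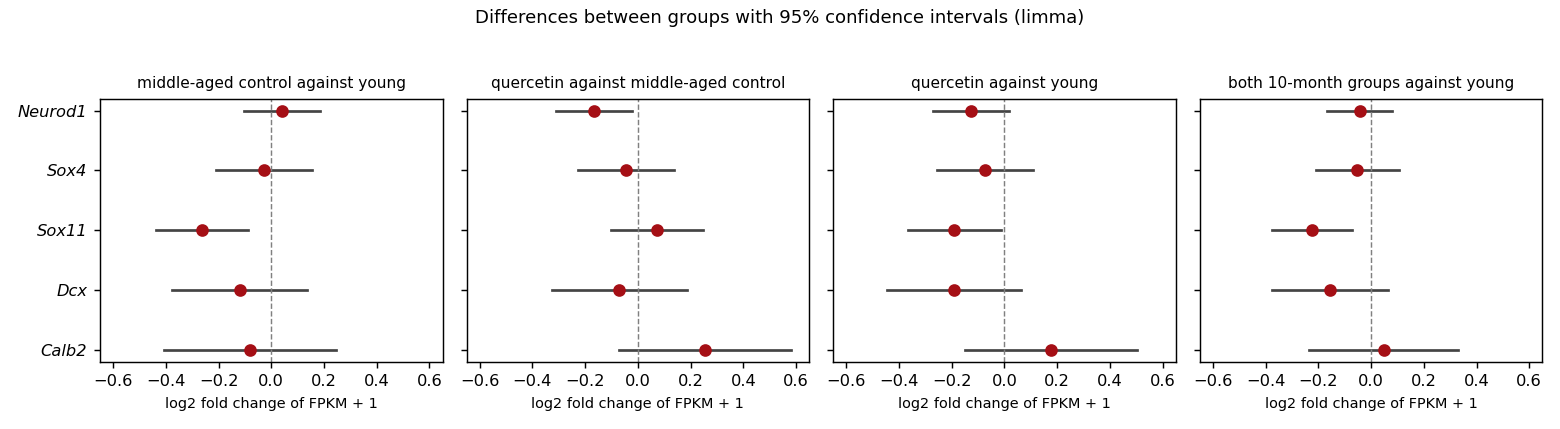
Log2 fold change of FPKM + 1 (horizontal axes) for the 5 members that passed the filter, with 95% confidence intervals from limma, in the 4 comparisons. The interval of Sox11 lies below 0 in the 3 comparisons with the young group and that of Neurod1 in quercetin against middle-aged control, before adjustment for the number of genes tested, and no adjusted p was under 0.05.

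Counted over all 10 genes, 4 were lower without overlap in the middle-aged controls than in the young (Sox11, Igfbpl1, Draxin and Top2a), where 7.57% of all genes with a value above 0 were, and 3 in quercetin against young (Sox11, Draxin and Top2a), where 4.88% were. The same 3 were lower in both 10-month groups than in the young, against 1.53% of all genes. Of the 5915 genes with a mean under 1 FPKM, 0.811% were lower without overlap in that last comparison, and among the 5 such members 2 were (Draxin and Top2a). Between quercetin and middle-aged control, 1 member was lower without overlap (Neurod1), as were 5.97% of all genes, and 1 higher (Eomes), as were 7.4%. By exact permutation, 3 members had p under 0.05 for both 10-month groups against young and 4 on log2(FPKM + 1), as had 6.17% and 6.25% of all genes. The members were chosen with earlier results of these data known, so a count above these shares is not an independent test. The median log2 fold change of the 5 tested members was -0.05 for both 10-month groups against young and -0.05 for quercetin against middle-aged control, beside -0.00195 and 0.00609 over all tested genes.

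The 5 higher members shared their lowest library. Quercetin 3 was the lowest of the 9 libraries for Calb2, Neurod1, Sox4, Dcx and Sox11, while it was the lowest for 11.4% of all tested genes, within the range of 7.87% to 15.1% over the libraries. Median-of-ratios factors of the 9 libraries lay between 0.994 and 1.01, and what set quercetin 3 apart was not tested. Without quercetin 3, Dcx in quercetin against middle-aged control went from -0.07 to 0.05. Of the 5 lower members, Draxin and Eomes were also lowest of their group in quercetin 3, Igfbpl1 was in the middle, and Mki67 and Top2a were highest.

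Igfbpl1 and Eomes shared the opposite feature, their highest values in young control 3 and quercetin 2. Beside the choroid plexus sum, other sums of these 2 libraries were the highest of the 9. For 15 genes of the thalamus and habenula, next to the hippocampus, they were 58.8 and 63.9 FPKM against 39.6 to 49.6 FPKM in the other 7. Not every gene of that list went with its sum. Prkcd, Zic1 and Zic4 were highest in the 2 libraries, with Zic1 at 8.35 and 9.67 FPKM against 1.22 to 3.45 FPKM. Gpr151 was lowest there, at 0.31 and 0.22 FPKM against 0.38 to 0.58 FPKM, and Slc17a6 and Tcf7l2 lay within the range of the others. For 8 genes of Cajal-Retzius cells the sums were 22.9 and 23.3 FPKM against 16.2 to 19.3. Cacna2d2, Ndnf and Lhx1 of that list were highest in both libraries. Trp73 was at 1.48 FPKM in young control 3 but at 0.74 FPKM in quercetin 2, against 0.43 to 1.00 FPKM in the others, and Reln lay within their range. For 7 genes of interneuron neuroblasts of the ventricular zone the sums were 46.6 and 50.1 FPKM against 35.0 to 43.0. Sp8, a factor of those neuroblasts that migrate to the olfactory bulb, was at 1.09 and 1.07 FPKM against 0.33 to 0.53 FPKM, and it was picked after its values were seen. Most of the ventricular zone sum was Meis2, at 14.91 to 21.97 FPKM over the libraries, and Dlx1, at 10.92 to 14.32 FPKM. Which cells these transcripts came from was not tested. By group, the ventricular zone sum was 41.6 to 46.6 FPKM in the young, 35.0 to 37.4 FPKM in the 10-month controls and 38.2 to 50.1 FPKM in the quercetin libraries. The thalamus and habenula sum was 45.1 to 58.8, 39.6 to 42.2 and 44.9 to 63.9 FPKM in the same order. Both sums were thus lower in all middle-aged controls than in all young and all quercetin libraries. The sum of the mature dentate granule neuron genes separated the other way. It was 318.6 to 327.3 FPKM in the middle-aged controls, 307.6 to 311.6 FPKM in the young and 305.4 to 317 FPKM in the quercetin libraries. How often such sums separate was not tested. In the 7 libraries other than young control 3 and quercetin 2, Igfbpl1 was at 0.69 and 0.63 FPKM in the young against 0.04 to 0.23 FPKM in the older, and the ventricular zone sum was at 41.6 and 43.0 FPKM against 35.0 to 39.1 FPKM. Eomes lay between 0.05 and 0.25 FPKM with overlap there. The part of neighbouring tissue in the values of Igfbpl1, Eomes and the other members was not tested.

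**Figure D3:**
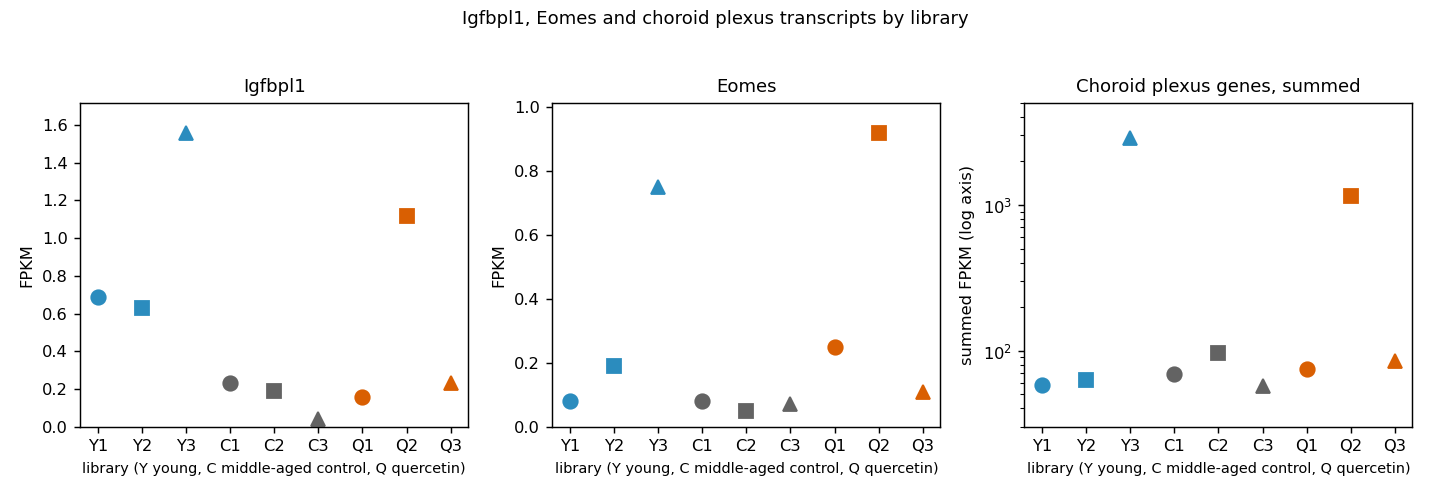
FPKM of Igfbpl1 and Eomes (linear axes from 0) and the summed FPKM of 16 choroid plexus genes (log axis) in each of the 9 libraries, coloured by group. Young control 3 and quercetin 2 are the highest in all 3 panels, and Igfbpl1 in young control 1 and 2 lies above all 10-month libraries other than quercetin 2.

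Other genes of the same stages gave the following picture. Of 36 genes of neuroblasts and newborn neurons, 33 were tested and 0 were called in any comparison. In both 10-month groups against young, 22 of the 33 had a log2 fold change below 0, with a median of -0.05 (-0.00195 over all tested genes). At unadjusted limma p under 0.05, 7 were lower and 1 higher, beside 1158 of all 13062 tested genes in either direction. Nrep, a gene of growing neurons, was at 32.79, 38.19 and 32.15 FPKM in the young, at 27.00, 22.30 and 23.62 FPKM in the 10-month controls and at 24.76, 31.21 and 27.38 FPKM in the quercetin libraries. All its young libraries lay above all older ones, with a log2 fold change of -0.39 and a standard error of 0.0807 (limma adjusted p = 0.152). It was the only 1 of the 36 genes lower without overlap there, beside 1.53% of all genes. In middle-aged control against young 8 were lower and 3 higher without overlap, beside 7.57% and 7.54% of all genes. In quercetin against middle-aged control 3 were lower and 5 higher, beside 5.97% and 7.4%. Tubb3, Tubb2b, Fxyd7 and Gap43 were lower in the first and higher in the second, and Bcl11b the reverse. Both share the middle-aged control libraries. In quercetin against young 4 were lower and 1 higher, beside 4.88% and 5.62%. In both 10-month groups against young, Dpysl5, a collapsin response mediator of axon growth, was at -0.23 (limma adjusted p = 0.409). Tbr1, a factor of glutamatergic neurons, was at -0.13 there (adjusted p = 0.436).

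Of 20 neural stem cell genes, which are largely shared with astrocytes, 18 were tested and 0 called, with a median of 0.02. Gfap, the intermediate filament of astrocytes and radial stem cells, ranged from 97.51 to 102.84 FPKM in the young and from 114.49 to 148.81 FPKM in the 10-month libraries, higher without overlap, as were 1.92% of all genes. Its log2 fold change was 0.41 with a standard error of 0.0728 (limma adjusted p = 0.0847). Sox9, a glial factor, was at 0.24 (adjusted p = 0.424) and Prom1, which encodes prominin, at -0.31 (adjusted p = 0.23). Nes, which encodes the intermediate filament nestin of stem cells, lay between 1.82 and 2.99 FPKM and did not separate the groups.

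Of 41 further cell division genes, 21 were tested and 0 called, with a median of -0.03. The 3 with the smallest p were Anln, a cytokinesis gene that oligodendrocytes also make, at 0.32 (limma adjusted p = 0.168), Smc2, a condensin subunit, at 0.15 (adjusted p = 0.577), and Cenpa, the histone of centromeres, at -0.22 (adjusted p = 0.599). Among the genes too low for the filter, Ccnb2, a cyclin of mitosis, was at 0.84, 0.77 and 0.91 FPKM in the young, at 0.18, 0.45 and 0.62 FPKM in the 10-month controls and at 0.55, 0.67 and 0.45 FPKM in the quercetin libraries. Aurkb, a kinase of mitosis, was at 0.11, 0.09 and 0.08 FPKM in the young, at 0, 0 and 0.03 FPKM in the 10-month controls and at 0.03, 0 and 0.06 FPKM in the quercetin libraries. These 2 of the 41 genes were lower without overlap in the older libraries and Anln was higher, beside 1.53% lower and 1.92% higher of all genes and 0.811% lower of those with a mean under 1 FPKM, and Ccnb2 and Aurkb are named after their values were seen.

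All 15 genes of mature dentate granule neurons were tested and 0 were called, with a median of 0.02, and none separated both 10-month groups from the young. Stxbp6 was at 0.15 (limma adjusted p = 0.289), Npnt at -0.15 (adjusted p = 0.503) and Tdo2 at -0.18 (adjusted p = 0.567). Prox1, their defining factor, had a log2 fold change of 0.08 with a standard error of 0.0504. In the middle-aged controls against young, C1ql2 and Stxbp6 of the 15 were higher without overlap, as were 7.54% of all genes with a value above 0. Stxbp6 was at 25.32 to 27.06 FPKM in the young and 29.44 to 32.26 FPKM in the controls. C1ql2, Stxbp6 and Plk5 were lower without overlap in quercetin than in middle-aged control, as were 5.97% of all genes. In quercetin against young, Npnt was lower and C1ql3 higher without overlap, as were 4.88% and 5.62% of all genes.

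Of 24 genes of growth factors and of the control of neurogenesis, 17 were tested and 2 were called. Cdkn1a, which encodes the cell cycle inhibitor p21, was at 8.02, 8.31 and 9.26 FPKM in the young, at 3.57, 5.03 and 4.04 FPKM in the 10-month controls and at 6.34, 6.83 and 7.26 FPKM in the quercetin libraries. The 3 groups did not overlap, with the controls lowest and the quercetin libraries between. It fell in the middle-aged controls by 0.88 on the log2 scale (standard error 0.0967, limma adjusted p = 0.00362), fell in both 10-month groups together by 0.58 (adjusted p = 0.0268, lost in 10 of 17 alternatives) and rose with quercetin by 0.59 (adjusted p = 0.0489). The call with quercetin was lost in 13 of 18 alternatives, with adjusted p between 0.0178 and 0.231, among them leaving out young control 1 or 2, middle-aged control 1 or 3, or any quercetin library. The call of middle-aged control against young was lost in 1, without young control 3 and quercetin 2 (adjusted p = 0.0536).

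Vegfa, a growth factor of vessels that also acts on progenitors, was at 22.05, 23.69 and 22.60 FPKM in the young, at 23.15, 20.66 and 22.96 FPKM in the 10-month controls and at 27.42, 30.61 and 30.88 FPKM in the quercetin libraries. The quercetin libraries lay above all others. It rose with quercetin by 0.40 on the log2 scale (standard error 0.0581, limma adjusted p = 0.029), a call lost in 10 of 18 alternatives with adjusted p up to 0.206, among them leaving out any middle-aged control or quercetin 2 or 3. Bdnf, a neurotrophin, was at -0.11 in both 10-month groups against young (adjusted p = 0.61) and at 0.12 in quercetin against middle-aged control (adjusted p = 0.476).

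**Figure D4:**
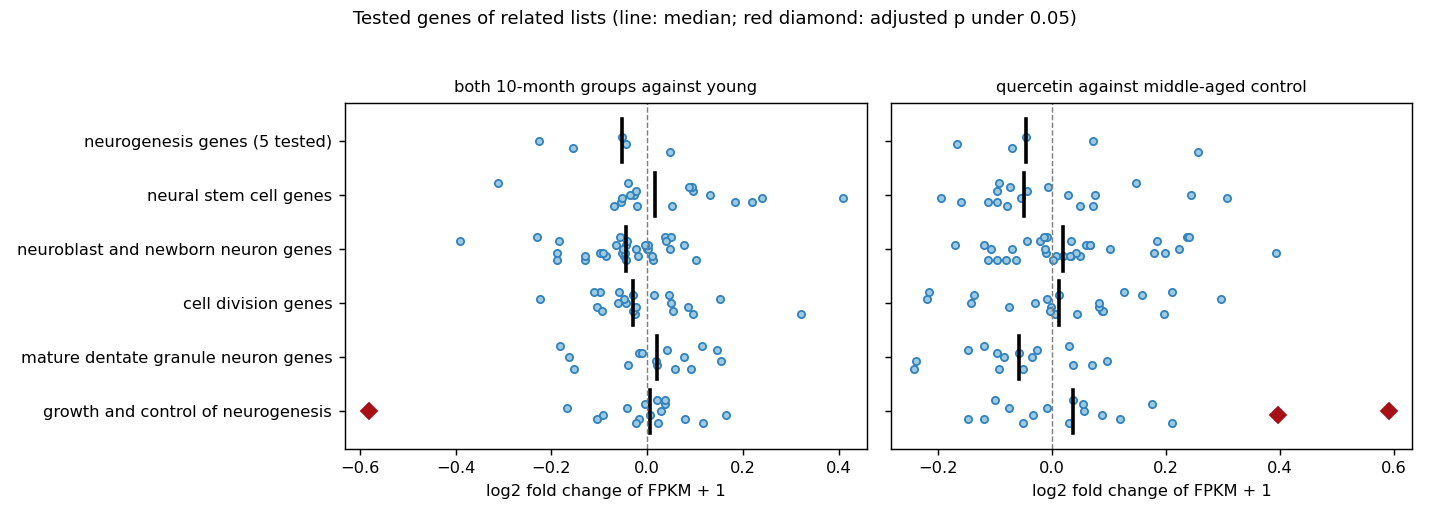
Log2 fold change of FPKM + 1 (horizontal axes) of each tested gene (circles) of 6 lists, with the median of each list as a black line and genes with adjusted p under 0.05 as red diamonds, for both 10-month groups against young and for quercetin against middle-aged control. The medians lie between -0.06 and 0.04, and the diamonds are Cdkn1a on the left and Cdkn1a and Vegfa on the right.

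Lists of other cells were counted in the same fit. All 10 microglia genes had log2 fold changes above 0 for both 10-month groups against young, with a median of 0.18, and 0 were called. At unadjusted limma p under 0.05 there were 5, beside 1158 of all 13062 tested genes. Their sum was 173.4 to 184.3 FPKM in the young and 184.8 to 221.4 FPKM in the older libraries. Of 15 genes of oligodendrocyte precursors and newly formed oligodendrocytes, 0 were called, with Gpr17, a receptor of newly formed oligodendrocytes, at -0.36 (limma adjusted p = 0.222), Sox10 at 0.27 (adjusted p = 0.228) and Bmp4 at -0.28 (adjusted p = 0.465). Oligodendrocyte precursors divide too and make Sox4, Sox11 and Top2a to some extent, and their part in these values was not tested. Of 11 tested pyramidal neuron genes Wfs1, which encodes the endoplasmic reticulum protein wolframin and marks CA1, fell by 0.30 on the log2 scale in both 10-month groups (adjusted p = 0.0362), a call lost in 12 of 17 alternatives, among them leaving out any library other than middle-aged control 3. In the 16 interneuron and mossy cell genes, 9 endothelial genes, 7 choroid plexus, 12 thalamus and habenula, 4 Cajal-Retzius and 6 ventricular zone interneuron neuroblast genes that were tested, 0 were called.

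The genes whose pattern over the 9 libraries was most like that of Dcx were Itga3, Ube2o, Akap17a, Gga2 and 2510022D24Rik, at a root mean square difference of 0.158, 0.285, 0.289, 0.303 and 0.311 SD of the standardised log2(FPKM + 1). Itga3, an integrin subunit, was lowest in quercetin 3 at 3.28 FPKM and highest in young control 2 at 4.27 FPKM, as Dcx was. For Neurod1 the nearest were Tspyl3, Gm31255 and Ska3 at 0.376, 0.397 and 0.403 SD. For Calb2 they were Arhgap6, Zfp930 and Baiap3 at 0.322, 0.328 and 0.342 SD, and Baiap3 was at 3.91 and 3.90 FPKM in quercetin 1 and 2 against 1.34 FPKM in quercetin 3. None of these genes is in the lists above.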

How the data were processed

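Hippocampal RNA-seq of 9 libraries was analysed from the FPKM values that the authors deposited (2 decimals, 22173 genes, values for 18798). TopHat2 and Cufflinks on GRCm38 are listed in the processing notes of the submitters, whereas the study's methods name HISAT2 and Bowtie2 for mapping and RESM for expression levels. The sources differ, and which tool gave the FPKM was not settled. FPKM are not counts and total depth is unknown, so no count model was fitted.

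The 13062 genes at 1 FPKM or more in 3 or more libraries were tested on log2(FPKM + 1), which understates changes of low genes, with limma 3.58.1 (R 4.3.3; empirical Bayes, mean-variance trend, 2-sided, Benjamini-Hochberg adjusted p under 0.05) in 1 fit of 3 groups and 4 contrasts. The study's statistics section names a general unpaired test of group pairs and none for RNA-seq genes in particular, so limma was used. Single genes were compared by two-sided exact permutation of mean FPKM (Python 3.11.15). Gene positions and promoter sequences are from RefSeq tables of GRCm38.p6, and 8 of the 10 members had a promoter entry, with bases inside the annotated gene left out. Named genes are all members, the called genes of 14 further lists or the 3 with the smallest p for age, and the nearest patterns. For the lists of other cells the rule (also their 2 highest genes) was followed only in part. Prox1, Nes, Sp8, Ccnb2, Aurkb, C1ql2, C1ql3, Plk5, Tubb3, Tubb2b, Fxyd7, Gap43 and Bcl11b were named outside it after their values were seen. So were the single genes named for the thalamus and habenula, Cajal-Retzius and ventricular zone sums. The members and lists were chosen with earlier results of these data known. Of the tests, the limma fit was checked on simulated data, for genes that passed the filter. Alternatives were another pseudocount (0.1), other filters, scalings, thresholds and limma settings, a replicate block, fits of 6 libraries and left-out libraries. Figures were drawn with matplotlib 3.10.9.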

Additional observations from a re-analysis of the deposited data

How the results depend on the processing

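Limma called 0 members in each of the 4 comparisons and in all 75 alternatives, which included no filter, pseudocounts and scalings, fits of 6 libraries, an adjusted p under 0.1 and each library left out. Only the fits without a filter held Eomes, Draxin, Mki67 and Top2a, and Igfbpl1 also entered at 0.5 FPKM in 3 libraries. The other alternatives could not call these low members and say nothing about them. The replicate block gave 0 called members too. Whether the replicate numbers pair the samples was not settled. Deviations of same-numbered libraries from their group means correlated at -0.198 to 0.118 and those of different numbers at -0.203 to 0.282. With 3 libraries per group these values cannot exclude a pairing. Over all genes the block took the calls of both 10-month groups against young from 21 to 11. Sox11 kept its direction in all 17 alternatives of that comparison, from -0.30 to -0.19 (limma adjusted p 0.286 to 0.707). Members that took the other sign in any alternative were Calb2, Dcx, Neurod1 and Sox4, in 1 or 2 alternatives of a comparison, and the cause was not tested.

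By exact permutation, 3 members had p under 0.05 for both 10-month groups against young (6.17% of all genes), 4 on log2(FPKM + 1) (6.25%) and 3 to 4 with each library left out. Over all genes, calls of quercetin against middle-aged control went from 22 to between 0 and 13 in the fits that moved them, down to 0 without middle-aged control 1, 1 without a filter and 2 without the trend. The low members rest on few fragments and 2 decimals, so small differences among them were not detectable here.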
